A study of Arabidopsis thaliana with 10 samples.

Results

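Gibberellin was given back to dark-grown Arabidopsis thaliana seedlings in which the synthesis of both gibberellin and brassinosteroid was blocked, and messenger RNA was sequenced 12 hours later. Both groups compared were wild-type Col-0 on medium with 1 µM paclobutrazol (PAC) and 2 µM propiconazole (PPZ) for 4.5 days in the dark. The GA3 group then received liquid with 10 µM GA3, an active gibberellin, and the mock group a liquid without it. The liquid was soon poured off, and the plates were kept until collection. Each group had 2 libraries, made with a TruSeq RNA kit from RNA that the labels assign to the hypocotyl. All 33518 genes of the deposited table for these groups were taken, of 33518 genes in the series, and 24513 of them had a p-value. The labels also describe wild type on 1 µM PAC without PPZ, with 10 µM GA3 or mock, and a mock-treated group of the mutant bzr1-1D on both inhibitors, again with 2 libraries a group and grown likewise for 4.5 days in the dark. Every group of the series carried PAC. The number of seedlings behind a library is not given in the sources used here, and both inhibitors are chemicals rather than mutations.

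Gibberellins are diterpenoid hormones made from ent-kaurene, and PAC inhibits ent-kaurene oxidase, an early enzyme of that route. PPZ inhibits an oxidation step of brassinosteroid synthesis. Active gibberellin binds the GID1 receptors, which then bind the DELLA proteins, and the F-box protein SLY1 marks the DELLAs for destruction. DELLAs bind and restrain growth-promoting transcription factors, among them the phytochrome-interacting factors (PIFs) and the brassinosteroid-regulated factor BZR1. In the dark, gibberellin and brassinosteroid both promote hypocotyl elongation and hold back light-type development.

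GA3 changed the RNA of many genes while brassinosteroid synthesis was inhibited. In the authors' deposited table, 1463 genes were higher with GA3 and 1806 were lower at a DESeq adjusted p under 0.05. These were 5.97% and 7.37% of the genes tested, 13.3% in all, and a gene called higher or lower below is one of them. Most called changes were modest, with a median of 1.51-fold among the genes called higher and 1.48-fold among those called lower. At least 2-fold, 261 genes were called higher (1.06% of those tested) and 335 lower (1.37%). At least 4-fold, 45 were higher and 105 lower, and at least 8-fold, 13 were higher and 40 lower.

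Levels are given as normalized reads, which are reads divided by the DESeq size factor of the library. The deposited table holds group means, from which the reads of each library were recovered. Nothing ties a recovered library to the first sample or its repeat, so the libraries are told apart only as deeper and shallower, and each pair of values gives the deeper library first. The 4 libraries held between 13051151 and 16985007 reads in genes. Log2 changes are from limma-voom on these reads, with a standard error and n = 2 libraries per group. The limma-voom test of the same groups called 3465 genes higher and 3549 lower of 19677, or 17.6% and 18% (35.6% in all), and shared 1449 and 1793 calls with the authors' deposited table (7.36% and 9.11%). Both libraries of one group lay above both of the other in 35.2% of genes for GA3 and 32.2% for mock, so a lack of overlap alone was common. In whole-tissue RNA, fewer cells of a type and less RNA per cell cannot be told apart. The libraries of each group differed by more than counting noise. In the GA3 pair, 122 genes were at least 2-fold higher in the deeper library and 25 in the shallower one, against 17 and 26 genes in the mock pair. Reads matching several places were kept out of the gene counts, which leaves near-identical members of gene families uncertain.

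Genes of the late steps of gibberellin synthesis fell. Of 12 tested genes of gibberellin synthesis, 6 were called lower and 1 higher, and their summed level was 5473 to 5504 normalized reads in the mock libraries and 2537 to 2556 with GA3. GA20OX3 (AT5G07200), one of the 20-oxidases that build active gibberellin, stood at 179.9 and 195 normalized reads in the mock libraries and at 8.74 and 3.12 with GA3. The reads behind this fall gave a mock-to-GA3 ratio of 29.7-fold (exact 95% interval 17.5 to 54.8 for counting error alone), since the GA3 libraries together held 14 reads. GA20OX2, a further 20-oxidase, stood at 1453 and 1550.3 in mock and at 147 and 124 with GA3, a log2 change of -3.45 ± 0.10. GA20OX1 stood at 46.0 and 37.2 in mock and at 10.3 and 5.20 with GA3. The log2 change of GA20OX1 was -2.38 ± 0.38, on 18 reads with GA3. All 3 of these 20-oxidases were lower in both GA3 libraries than in either mock library. GA3OX1, the 3-oxidase that completes active gibberellin, stood at 906 and 881 in mock and at 242 and 252 with GA3, a log2 change of -1.86 ± 0.08.

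GA20OX3 and GA3OX1 showed the largest falls of a 20-oxidase and of a 3-oxidase, and the 250 bases before their starts are given, 5′ to 3′ on the strand of the gene, from RefSeq assembly TAIR10.1. The deposited tables name no build and hold no coordinates, so the positions are those of RefSeq. GA20OX3 lies on the minus strand (chr5:2245340-2245589) and GA3OX1 on the minus strand (chr1:5346343-5346592). Capitals mark an I-box core (GATAAG, here as CTTATC), at 151 bases before the start of GA20OX3 and 57 before that of GA3OX1, and in GA3OX1 also TGTCTC, the auxin response element, at 245.
GA20OX3: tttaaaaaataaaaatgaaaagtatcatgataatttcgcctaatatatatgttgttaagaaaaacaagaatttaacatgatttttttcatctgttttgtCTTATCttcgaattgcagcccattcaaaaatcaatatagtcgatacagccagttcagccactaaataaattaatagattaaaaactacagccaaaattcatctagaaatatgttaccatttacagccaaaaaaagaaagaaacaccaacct
GA3OX1: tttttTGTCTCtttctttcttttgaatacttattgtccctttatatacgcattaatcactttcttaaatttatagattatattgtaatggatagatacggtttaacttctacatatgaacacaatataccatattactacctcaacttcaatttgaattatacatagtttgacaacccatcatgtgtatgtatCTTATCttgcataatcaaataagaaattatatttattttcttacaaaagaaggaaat
On either strand, GATAAG was in 12.4% of the 250-base windows of all tested genes and TGTCTC in 10.8%.

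The early steps of the route moved less. The gene named GA3 (AT5G25900), which encodes ent-kaurene oxidase, the target of PAC, and is not the hormone, stood at 1172 and 1161 in mock and at 718 and 718 with the hormone, a log2 change of -0.70 ± 0.06. KAO2, the next oxidase, stood at 1243 and 1206 and then 904 and 943, a log2 change of -0.41 ± 0.06. KAO1 stood at 315 and 285 in mock and 268 and 290.2 with GA3, so its groups overlapped and it was not called. GA2, ent-kaurene synthase, was the 1 member called higher, at 130.4 and 163 in mock and 210.5 and 199.7 with GA3, with an adjusted p of 0.0386 in the authors' deposited table. GA1, which makes the precursor of ent-kaurene, stood at 25.6 and 22.1 in mock and 27.8 and 20.8 with GA3 and was not called. GA20OX4 and GA3OX3 had no read in any of the 4 libraries, and GA20OX5, GA3OX2 and GA3OX4 stayed under 2 normalized reads.

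Some genes that inactivate gibberellin rose. Of 10 tested members, 3 were called higher and none lower, and the limma-voom test had the same 3 calls. GA2OX2, a 2-oxidase that removes active gibberellin, stood at 35.8 and 39.0 in mock and at 151 and 99.8 with GA3, a log2 change of 1.75 ± 0.24. GA2OX6 stood at 67.3 and 82.4 in mock and at 238 and 233 with GA3, a log2 change of 1.66 ± 0.14. GA2OX4 stood at 5.97 and 11.5 and then 28.6 and 22.9, a ratio of 3.01-fold (exact 95% interval 1.78 to 5.28 for counting error alone). In all 3 genes both GA3 libraries were above both mock libraries. ELA1, an oxidase that deactivates gibberellins, stood at 72.5 and 83.3 in mock and 85.8 and 54.1 with GA3 and overlapped. GA2OX1, GA2OX3, GA2OX7, GA2OX8, CYP714A2, GAMT1 and GAMT2 were at or below 6.94 normalized reads as a mean in each group.

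Perception moved in opposite ways for receptors and DELLAs. Among 13 members tested, 4 were called higher and 4 lower. GID1B, a gibberellin receptor, stood at 421 and 470.4 in mock and at 176 and 149.8 with GA3, a log2 change of -1.43 ± 0.11. GID1A, another receptor, stood at 1017 and 965 and then 608 and 599, a log2 change of -0.71 ± 0.06. The third receptor, GID1C, stood at 372 and 385 in mock and 418 and 415 with GA3 and was not called. SLY1, the F-box gene, stood at 420.3 and 399.5 in mock and at 279.6 and 302 with GA3, a log2 change of -0.50 ± 0.08. Its relative SNE stood at 20.5 and 20.4 in mock and 13.5 and 17.7 with GA3 and was not called. SCL3, which counters the DELLAs, stood at 1280.5 and 1339.5 in mock and at 331 and 323 with GA3, a log2 change of -1.997 ± 0.07. These 4 called members were lower in both GA3 libraries.

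Of the 5 DELLA genes, 4 rose. RGL3 stood at 31.5 and 43.4 in mock and at 102 and 118 with GA3, a log2 change of 1.55 ± 0.20. RGL1 stood at 92.1 and 91.2 and then 254 and 242, a log2 change of 1.44 ± 0.12. GAI stood at 593 and 582 and then 1231 and 1277, a log2 change of 1.09 ± 0.06. RGA1, the RefSeq symbol of the DELLA RGA, stood at 1659 and 1721 and then 3325 and 3218, a log2 change of 0.95 ± 0.05. In each of the 4, both GA3 libraries were above both mock libraries. RGL2 stood at 122 and 93.9 in mock and 136 and 132 with GA3 and was not called. These are RNA levels, and the DELLA proteins were not measured. SPY and SEC, the sugar transferases that modify DELLAs, overlapped between the groups, with log2 changes of 0.02 ± 0.06 and 0.05 ± 0.06.

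**Figure D1:**
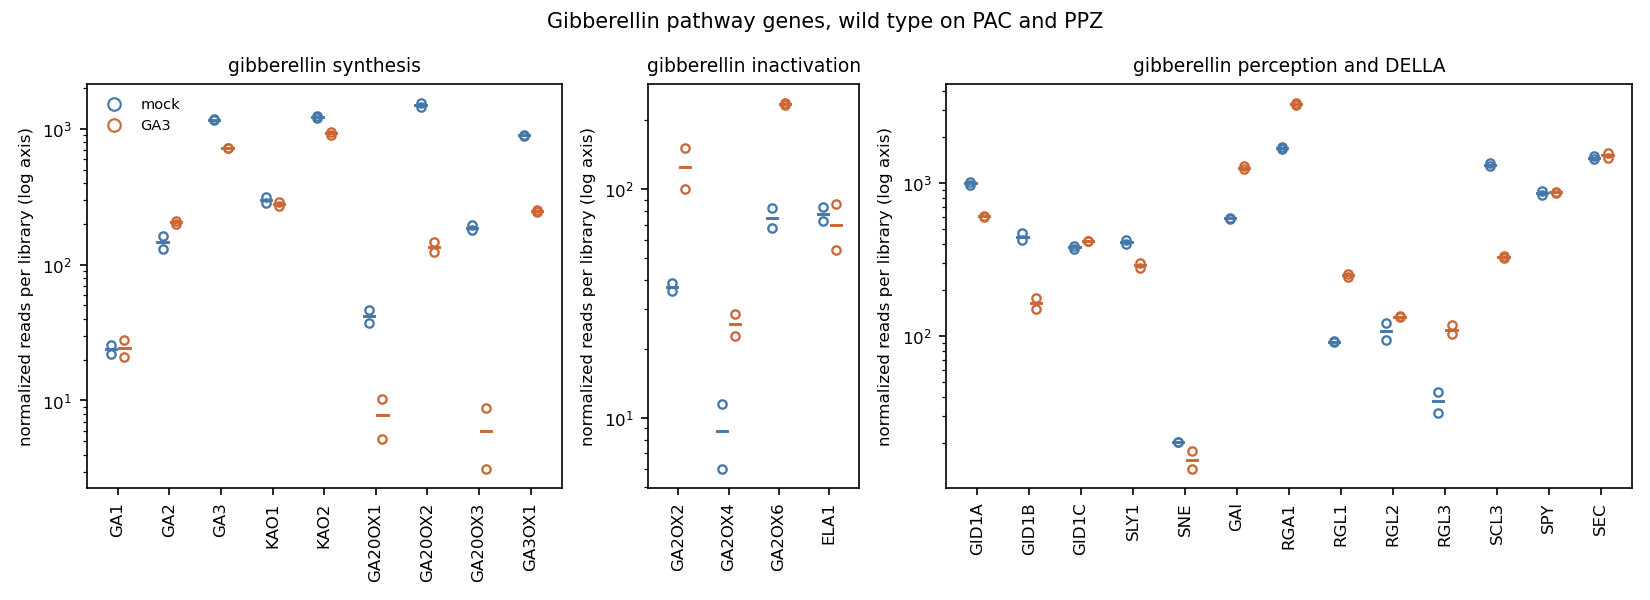
Normalized reads of gibberellin genes in wild type on PAC and PPZ, on a log axis, with 1 open circle per library (blue for mock, orange for GA3, 2 each) and a short bar at the mean of each group. The 20-oxidases and GA3OX1 fall with GA3, while GA2OX2, GA2OX4, GA2OX6 and 4 of the 5 DELLA genes rise; genes whose mean was under 10 normalized reads are not drawn.

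Of 4 tested genes for proteins that carry gibberellin across membranes, 2 were called lower. NPF3 stood at 199 and 221 in mock and at 126 and 149 with GA3, a log2 change of -0.63 ± 0.12. SWEET14 stood at 36.7 and 29.2 in mock and at 12.7 and 4.16 with GA3, a mock-to-GA3 ratio of 3.67-fold (exact 95% interval 2.22 to 6.34 for counting error alone). Both were lower in each GA3 library. SWEET13 and AT3G25260 were not called, and stood at means of 11.6 and 16.4 in mock and 7.06 and 4.71 with GA3.

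The GASA genes encode small cysteine-rich peptides, named for their regulation by gibberellin in plants. Of 12 tested, 2 were called higher and 2 lower. GASA6 stood at 218 and 219.7 in mock and at 1279 and 1475 with GA3, a log2 change of 2.64 ± 0.10. GASA4 rose less, from 23389 and 21786 to 37682 and 37677, a log2 change of 0.74 ± 0.04. GASA3 stood at 286 and 246 in mock and at 41.3 and 10.4 with GA3, a log2 change of -3.53 ± 0.36. GASA2 stood at 105 and 77.1 in mock and at 20.7 and 0 with GA3, and the shallower GA3 library had no read of it. Its mock-to-GA3 ratio over the libraries was 7.79-fold (exact 95% interval 5.17 to 12.2 for counting error alone). GASA1, GASA14 and AT2G14900 were not called, with log2 changes of -0.07 ± 0.04, -0.17 ± 0.05 and 0.06 ± 0.05.

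Rises were ranked among genes that both tests called and whose higher group averaged 20 or more normalized reads. The largest rise by log2 change was that of a gene nearly absent from mock. The gene scpl44 (AT1G43780), for a serine carboxypeptidase-like protein, stood at 0 and 0.886 normalized reads in mock and at 46.9 and 44.7 with GA3. Mock held 1 read of it, so its ratio of 106-fold (exact 95% interval 18.6 to 4217 for counting error alone) has a wide interval. GH9B15, a glycosyl hydrolase, stood at 0 and 2.66 in mock and at 33.4 and 51.0 with GA3. AT5G46960, annotated as an invertase and pectin methylesterase inhibitor, stood at 5.97 and 14.2 and then 131 and 138, a log2 change of 3.81 ± 0.34. All 3 had both GA3 libraries far above mock. Their mock means were under 20, so they passed the minimum through their GA3 libraries alone, and their gap from mock is partly due to that selection.

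AT5G59130, a subtilase, stood at 0.853 and 2.66 in mock and at 29.4 and 21.8 with GA3. NDB3, an NAD(P)H dehydrogenase, stood at 8.53 and 16.8 and then 134 and 156, a log2 change of 3.54 ± 0.31. AT5G59130 and NDB3 too passed the minimum through their GA3 libraries alone. AT1G06360, a fatty acid desaturase family gene, stood at 90.4 and 89.5 and then 599 and 665, a log2 change of 2.80 ± 0.12. Both libraries of each group lay close together in this last gene, and the GA3 libraries were far above. AT1G29090, for a cysteine proteinase, stood at 83.5 and 120.5 in mock and at 662 and 676 with GA3, a log2 change of 2.74 ± 0.13. Among the most abundant genes called higher by at least 1.5-fold, counted in reads and not per length, AT5G44440, a berberine-bridge-type oxidase family gene, stood at 13147 and 12361 in mock and at 25583 and 24601 with GA3, a log2 change of 0.98 ± 0.04. AT5G44020, annotated as an acid phosphatase, stood at 4772 and 4958 and then 8505 and 9155, a log2 change of 0.86 ± 0.05.

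Among the most abundant genes called lower by at least 1.5-fold, LTP2, a lipid transfer protein, had a mean of 58701 in mock and 31642 with GA3 in the authors' deposited table. Its mock reads could not be resolved per library. GRP3S, a glycine-rich protein, stood at 47051 and 46048 in mock and at 26284 and 26931 with GA3, a log2 change of -0.81 ± 0.03. CP29, a chloroplast RNA-binding protein, stood at 24246 and 22534 and then 14181 and 12826, a log2 change of -0.79 ± 0.05. CPN60A, a chloroplast chaperonin subunit, stood at 21666 and 21257 and then 14243 and 14242, a log2 change of -0.59 ± 0.04. The mock and GA3 libraries of GRP3S, CP29 and CPN60A were apart.

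**Figure D2:**
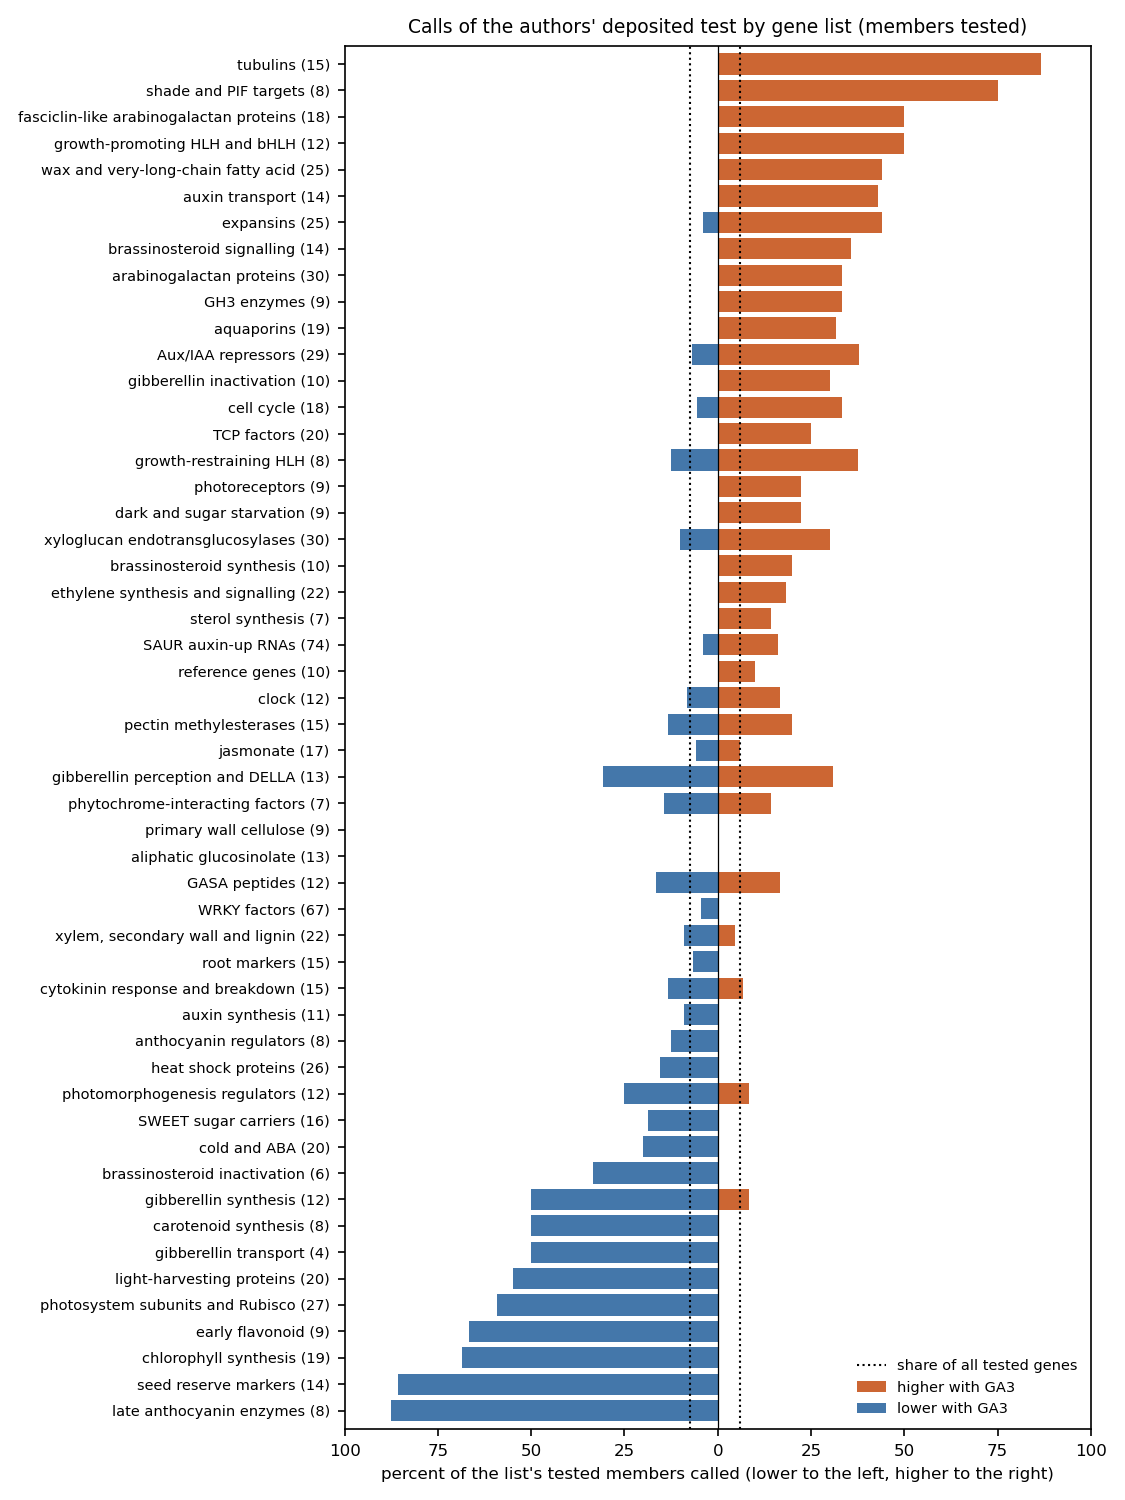
Percent of the tested members of each gene list called higher (to the right) or lower (to the left) with GA3 in the authors' deposited table, with the number tested after each name. The dotted lines mark 5.97% and 7.37%, the shares of all tested genes called higher and lower. Tubulins reach furthest to the right and late anthocyanin enzymes and seed reserve markers furthest to the left.

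Where a list below is said to have no call in one direction, limma-voom also called none there and the authors' deposited table had none at an unadjusted p under 0.05, with these exceptions. Limma-voom called 2 TCP factors lower, and 1 gene lower in each of brassinosteroid synthesis, GH3 enzymes, shade targets and aquaporins, and it called 6 WRKY factors, 4 cold and ABA genes and 2 genes in each of auxin synthesis, heat shock proteins and SWEET carriers higher. It also called 1 reference gene and 2 photoreceptors lower. At an unadjusted p, 2 TCP factors and 1 gene in each of GH3 enzymes, auxin transport and photoreceptors were lower in the authors' deposited table, and 3 WRKY factors, 3 auxin synthesis genes, 2 cold and ABA genes and 1 gene in each of heat shock proteins and SWEET carriers were higher.

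Many genes for loosening and building the cell wall rose. Expansins are wall proteins that let cellulose microfibrils slip during growth. Of 25 tested, 11 were called higher and 1 lower, with a median log2 change of 0.45 against 0.02 over all genes. EXPA8 stood at 23.0 and 18.6 in mock and at 252 and 346 with GA3, a log2 change of 3.78 ± 0.31. EXPA2 stood at 27.3 and 41.6 and then 299 and 348, a log2 change of 3.24 ± 0.21. EXLA2, an expansin-like gene, stood at 69.1 and 78.0 and then 295 and 323, a log2 change of 2.06 ± 0.13. In these 3 genes every GA3 library was far above every mock library. EXPA3 stood at 757 and 747 in mock and at 2929.5 and 3137 with GA3, a log2 change of 2.01 ± 0.06. EXPA12 stood at 17.1 and 24.8 and then 80.2 and 64.5, a log2 change of 1.81 ± 0.26. EXPA5 stood at 119 and 115 and then 342 and 382, a log2 change of 1.61 ± 0.11. EXPA4 and EXPA11, the members with the highest levels among those not called, had log2 changes of -0.12 ± 0.05 and 0.22 ± 0.05.

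Xyloglucan endotransglucosylases (XTHs) cut and rejoin the xyloglucan that ties cellulose together. Of 30 tested, 9 were called higher and 3 lower. XTH16 stood at 477 and 485 in mock and at 2534 and 2562 with GA3, a log2 change of 2.40 ± 0.06. XTH17 stood at 184 and 213 and then 454 and 543, a log2 change of 1.32 ± 0.11. XTH4 stood at 3651 and 3848 and then 8156 and 8651, a log2 change of 1.16 ± 0.05. XTH18 stood at 499.6 and 643 and then 1214 and 1265, a log2 change of 1.13 ± 0.09. The groups were apart in all 4. XTH25 went the other way, at 46.9 and 31.9 in mock and 7.94 and 3.12 with GA3, a mock-to-GA3 ratio of 6.75-fold (exact 95% interval 3.76 to 13.2 for counting error alone). XTH15 stood at 55656 and 50827 in mock and 52573 and 51801 with GA3 and did not pass either test. Of 15 pectin methylesterases tested, which trim the methyl groups of pectin, 3 were called higher and 2 lower. PME12 stood at 627 and 635 in mock and at 352 and 317 with GA3, a log2 change of -0.91 ± 0.08. PME44 stood at 889 and 871 in mock and at 1409.9 and 1482 with GA3, a log2 change of 0.71 ± 0.06.

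Tubulins, the subunits of the microtubules that guide cellulose synthesis, were called higher in 13 of 15 tested members and lower in none. TUB1 stood at 1274 and 1473 in mock and at 2968 and 3151 with GA3, a log2 change of 1.16 ± 0.06. TUB8 stood at 599 and 757 and then 1253 and 1438, a log2 change of 0.99 ± 0.09. TUA4 stood at 6326 and 6185 and then 10340 and 10223, a log2 change of 0.72 ± 0.04. The mock and GA3 libraries were apart in all 3. TUB2 and TUA1 did not pass, with log2 changes of 0.11 ± 0.05 and -0.07 ± 0.10. The summed level of the list was 60474 to 60675 normalized reads in mock and 87187 to 88711 with GA3.

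**Figure D3:**
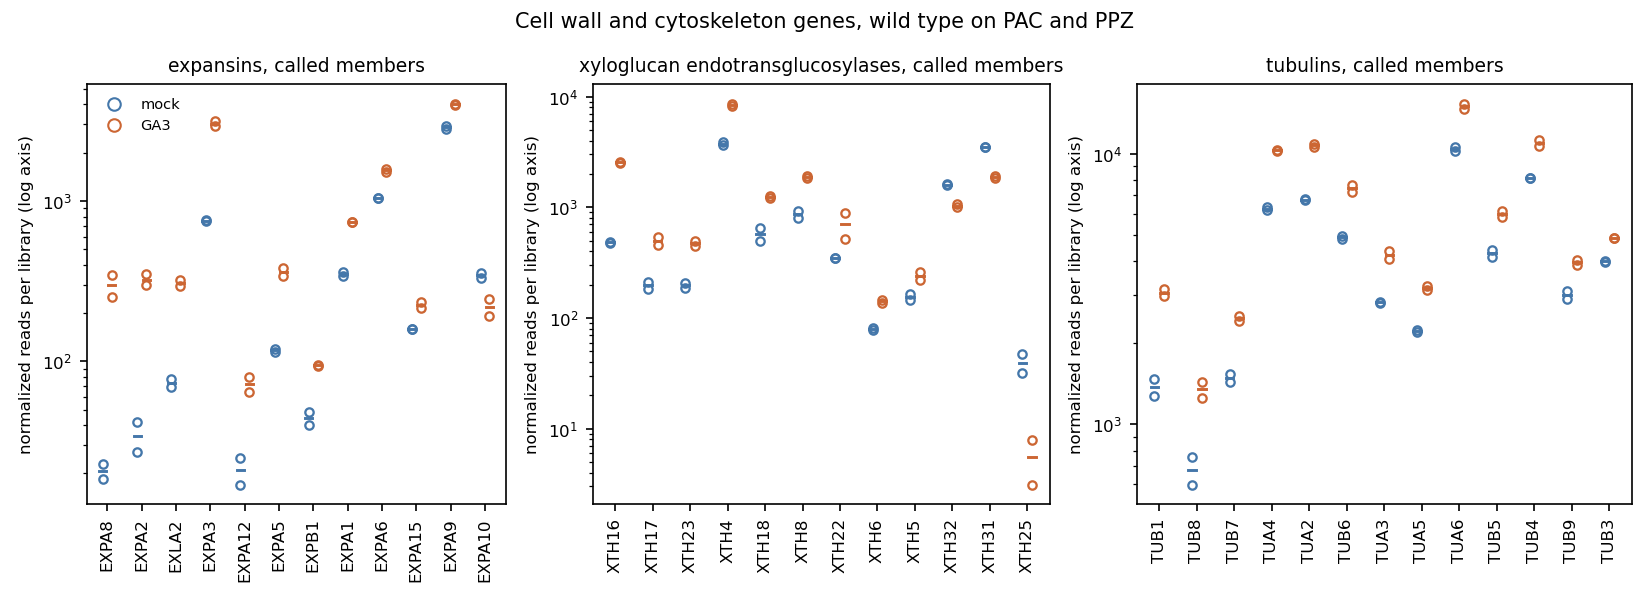
Normalized reads, on a log axis, of the expansins, XTHs and tubulins called in the authors' deposited table, with 1 open circle per library (blue for mock, orange for GA3, 2 each) and a bar at the mean of each group. Of the genes drawn, 1 expansin and 3 XTHs are lower with GA3, and all 13 tubulins are higher.

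The enzymes of primary-wall cellulose synthesis moved little. None of 9 was called in the authors' deposited table, where 4 were higher at an unadjusted p under 0.05, and limma-voom called 6 higher. CESA1, a catalytic subunit, stood at 9368 and 9021 in mock and at 10592 and 10834 with GA3, a log2 change of 0.22 ± 0.04. Of 22 genes of xylem, secondary wall and lignin, 1 was called higher and 2 lower, a share close to that of all genes. 4CL1, of the phenylpropanoid route, stood at 1337 and 1454 in mock and at 1758 and 1678 with GA3, a log2 change of 0.30 ± 0.06. OMT1, a methyltransferase of that route, stood at 2972 and 2963 and then 1567 and 1678, a log2 change of -0.87 ± 0.05. CAD4, which makes lignin alcohols, stood at 1150.0 and 1195 and then 749.9 and 725, a log2 change of -0.67 ± 0.06.

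Wall glycoproteins and water channels also held many rises and no fall. Of 18 fasciclin-like arabinogalactan proteins tested, 9 were called higher. FLA2 stood at 749 and 879.7 in mock and at 2409 and 2488 with GA3, a log2 change of 1.59 ± 0.07. FLA9 stood at 1005 and 1130.4 and then 2682 and 3149, a log2 change of 1.44 ± 0.08. FLA5 stood at 68.2 and 64.7 and then 200.2 and 205, a log2 change of 1.60 ± 0.14. Of 30 other arabinogalactan proteins, 10 were called higher. AGP4 stood at 393 and 423 in mock and at 937 and 935 with GA3, higher in both GA3 libraries. AGP1 stood at 252 and 204 and then 658 and 352, so its GA3 libraries were apart from mock and also far from each other. Of 19 aquaporins, 6 were called higher. TIP2;1, of the vacuole membrane, stood at 2721 and 2398 in mock and at 7996 and 7615 with GA3, a log2 change of 1.61 ± 0.06. PIP1;5, of the plasma membrane, stood at 1875 and 1906 and then 3798 and 3664, a log2 change of 0.98 ± 0.05. TIP1;2 and PIP1;2 were not called in the authors' deposited table, with log2 changes of 0.36 ± 0.06 and 0.36 ± 0.04. Limma-voom called both higher, among 11 aquaporins.

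Genes for the surface wax and its very long fatty acids were called higher in 11 of 25 and lower in none. CER1, of alkane synthesis, stood at 1472 and 1571 in mock and at 3298 and 3351 with GA3, a log2 change of 1.13 ± 0.05. KCS5, a fatty acid elongase subunit, stood at 517 and 539.5 and then 995 and 994, a log2 change of 0.91 ± 0.06. GPAT8, of cutin synthesis, stood at 425 and 479 and then 791 and 812, a log2 change of 0.83 ± 0.07. In each, both GA3 libraries lay above mock. KCS6 stood at 3114 and 3112 in mock and 2927 and 2912 with GA3 and was not called.

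Of 18 cell cycle genes, 6 were called higher and 1 lower. CYCD1;1, a cyclin of cycle entry, stood at 295 and 285 in mock and at 701 and 705 with GA3, a log2 change of 1.27 ± 0.07. CDKB2;1, a kinase of division, stood at 121 and 179 and then 284 and 318, a log2 change of 1.03 ± 0.14. CYCB1;2, a mitotic cyclin, stood at 92.1 and 121 and then 209 and 217, a log2 change of 1.01 ± 0.13. All 3 had groups that were apart. TCP factors include regulators of cell division, and 5 of 20 were called higher and none lower. TCP11 stood at 212 and 186 in mock and at 501 and 462 with GA3, a log2 change of 1.28 ± 0.09. TCP15 stood at 357 and 398 and then 781 and 797, a log2 change of 1.06 ± 0.07. TCP14 stood at 650.5 and 629.9 and then 991 and 1077, a log2 change of 0.69 ± 0.06.

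Auxin genes held rises among repressors, conjugating enzymes and transporters. Of 29 Aux/IAA genes, which encode repressors that auxin removes and whose RNA auxin induces, 11 were called higher and 2 lower. IAA19 stood at 46.0 and 59.4 in mock and at 207 and 220.5 with GA3, a log2 change of 2.02 ± 0.16. IAA7 stood at 2025 and 2172 and then 4513 and 5009, a log2 change of 1.18 ± 0.06. IAA29 stood at 145 and 154 and then 257 and 365, a log2 change of 1.01 ± 0.15. In the 3 genes the groups were apart. Of 74 SAUR genes, short auxin-induced genes linked to cell expansion, 12 were called higher and 3 lower. SAUR57 stood at 31.5 and 52.3 in mock and at 177 and 196 with GA3, a log2 change of 2.18 ± 0.20. SAUR3, which is AT4G34790, stood at 3.41 and 0.886 and then 26.2 and 27.0, a ratio of 12.2-fold (exact 95% interval 4.96 to 39.1 for counting error alone). SAUR78 and SAUR55 overlapped between the groups.

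Of 9 GH3 genes, whose enzymes join auxin and other hormones to amino acids, 3 were called higher and none lower. GH3.6 stood at 903 and 894 in mock and at 1968 and 1865 with GA3, a log2 change of 1.09 ± 0.06. GH3.5 stood at 2283 and 2256 and then 3068 and 3173, a log2 change of 0.46 ± 0.05. Of 14 auxin transport genes, 6 were called higher and none lower. WAG2, a kinase that acts on PIN carriers, stood at 20.5 and 23.0 in mock and at 90.6 and 93.6 with GA3, a log2 change of 2.06 ± 0.23. PIN7, an efflux carrier, stood at 1499 and 1523 and then 2839 and 2859, a log2 change of 0.91 ± 0.05. LAX1, of the influx carriers, stood at 528 and 526 and then 833 and 874, a log2 change of 0.69 ± 0.06. PIN3 and PIN4 were not called, with log2 changes of 0.11 ± 0.05 and -0.08 ± 0.05. Of 11 auxin synthesis genes, 1 was called in the authors' deposited table, the tryptophan aminotransferase gene TAR2, which stood at 184 and 195 in mock and at 99.3 and 82.2 with GA3, a log2 change of -1.05 ± 0.13. Limma-voom called TAA1, another such gene, and YUC8, a flavin monooxygenase gene of the next step, higher, at log2 changes of 0.38 ± 0.09 and 0.42 ± 0.11.

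Brassinosteroid genes were measured while the synthesis of that hormone was inhibited. Of 10 synthesis genes, 2 were called higher and none lower. BR6OX1, a late oxidase of the route, stood at 156 and 153 in mock and at 286 and 327 with GA3, a log2 change of 0.97 ± 0.11. DWF4, an early hydroxylase, stood at 1383 and 1480.3 and then 2215 and 2264, a log2 change of 0.65 ± 0.05. Of 6 inactivation genes, 2 were called lower. BAS1, a hydroxylase that inactivates brassinosteroids, stood at 286 and 292 in mock and at 128 and 133 with GA3, a log2 change of -1.15 ± 0.10. UGT73C5, a glucosyltransferase for them, stood at 233 and 211 and then 133 and 102, a log2 change of -0.90 ± 0.13. The groups were apart in all 4 genes.

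Among 14 brassinosteroid signalling genes, 5 were called higher and none lower. BEH1, a relative of BZR1, stood at 98.9 and 100.1 in mock and at 203 and 240.2 with GA3, a log2 change of 1.13 ± 0.13. BES1, the closest relative of BZR1, stood at 949.7 and 1031 and then 1624 and 1565, a log2 change of 0.69 ± 0.06. BZR1 stood at 401 and 383 and then 541 and 528, a log2 change of 0.45 ± 0.07. The receptor gene BRI1 stood at 3622 and 3576 in mock and 4448 and 4387 with GA3, a log2 change of 0.30 ± 0.04. BIN2, the kinase that inactivates BZR1, was not called, with a log2 change of 0.20 ± 0.04.

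Helix-loop-helix proteins that promote elongation were called higher in 6 of 12 and lower in none. PRE5 stood at 18.8 and 23.9 in mock and at 85.0 and 100.9 with GA3, a log2 change of 2.09 ± 0.24. HBI1, a DNA-binding partner in that network, stood at 1372 and 1335 and then 2304 and 2586, a log2 change of 0.85 ± 0.06. BEE3 stood at 239.6 and 204 and then 361 and 397, a log2 change of 0.77 ± 0.10. PRE1 had 1 read in mock and 21 with GA3, a ratio of 21.8-fold (exact 95% interval 3.501 to 900.3 for counting error alone). Members that restrain elongation were called higher in 3 of 8 and lower in 1. PAR2 stood at 69.9 and 64.7 in mock and at 149 and 176 with GA3, a log2 change of 1.24 ± 0.15. AIF3 stood at 1756 and 1658 and then 2917 and 2986, a log2 change of 0.79 ± 0.05. AIF2, the member called lower, had a log2 change of -0.37 ± 0.08.

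Of 7 PIF genes, 1 was called higher and 1 lower. PIF6 stood at 1396 and 1350.1 in mock and at 688 and 652 with GA3, a log2 change of -1.03 ± 0.06. PIF4 stood at 171 and 151 and then 194 and 258, a log2 change of 0.45 ± 0.14. Genes induced by shade and by PIFs were called higher in 6 of 8 and lower in none. HB4, a homeodomain factor, stood at 168 and 151 in mock and at 338 and 354 with GA3, a log2 change of 1.11 ± 0.10. HAT1 stood at 182 and 201 and then 403 and 381, a log2 change of 1.04 ± 0.09. HFR1, which restrains PIFs, stood at 740.0 and 729 and then 1241 and 1319.8, a log2 change of 0.80 ± 0.06. PIL1 stood at 1296 and 1279 in mock and 1056 and 1091 with GA3 and was not called.

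Of 12 regulators of light-type development, 1 was called higher and 3 lower. CGA1, a GATA factor of greening, stood at 69.1 and 49.6 in mock and at 29.4 and 21.8 with GA3, a log2 change of -1.17 ± 0.26. GNC, its paralogue, stood at 1172 and 1181 and then 670.4 and 618, a log2 change of -0.86 ± 0.06. HYH, a relative of the light regulator HY5, stood at 422 and 425 and then 218 and 218, a log2 change of -0.96 ± 0.08. GLK1, of chloroplast development, was the member called higher, at 436 and 404 in mock and 517 and 613 with GA3. Photoreceptors had 2 of 9 called higher, PHOT1 at a log2 change of 0.49 ± 0.04 and CRY1 at 0.28 ± 0.05. Clock genes had 2 of 12 higher and 1 lower, the last being LHY at a log2 change of -0.43 ± 0.05.

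Ethylene genes were called higher in 4 of 22 and lower in none. EFE, an enzyme of the last step of ethylene synthesis, stood at 2026 and 1997 in mock and at 4483 and 4628 with GA3, a log2 change of 1.18 ± 0.05. ACS11, of the step before it, stood at 88.7 and 72.6 and then 241 and 187, a log2 change of 1.42 ± 0.16. HLS1, needed for the apical hook, stood at 165 and 149 and then 286 and 297, a log2 change of 0.89 ± 0.10. Cytokinin genes had 1 of 15 higher and 2 lower. CKX5, which degrades cytokinin, stood at 569 and 564 in mock and at 1002 and 954 with GA3, a log2 change of 0.79 ± 0.06. Of 17 jasmonate genes, JAZ10, a repressor, was called lower, at 228 and 214 in mock and 129 and 130.0 with GA3. LOX2, a lipoxygenase, was called higher, at 17.1 and 16.8 and then 41.3 and 30.2. With 1 call in each direction, the jasmonate list was close to the shares of all genes. Of 9 genes induced by darkness and sugar starvation, 2 were called higher. DIN6, an asparagine synthetase, stood at 1518 and 1456 in mock and at 3313 and 3542 with GA3, a log2 change of 1.202 ± 0.05.

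Pigment genes fell. Late anthocyanin enzymes were called lower in 7 of 8 tested, with a median log2 change of -4.36, and no member was higher. DFR, dihydroflavonol reductase, stood at 191 and 198 in mock and at 5.56 and 4.16 with GA3. Its mock-to-GA3 ratio over the libraries was 39.2-fold (exact 95% interval 21.7 to 79.1 for counting error alone). LDOX, the next enzyme, stood at 286 and 288 and then 13.5 and 9.36, a log2 change of -4.59 ± 0.28. GSTF12, needed to move anthocyanin into the vacuole, stood at 202 and 171 and then 10.3 and 2.08, a log2 change of -5.05 ± 0.49. Each was far below mock in both GA3 libraries. UGT79B1, an anthocyanin glycosyltransferase, stood at 75.0 and 83.3 in mock and at 3.97 and 2.08 with GA3. 5MAT, a malonyltransferase, stood at 110.0 and 135 and then 7.15 and 5.20, a log2 change of -4.19 ± 0.37. AT4G14090, annotated as a glycosyltransferase, stood at 141 and 126 and then 16.7 and 14.6, a log2 change of -3.05 ± 0.26. AT1G03940, annotated as an acyltransferase, stood at 74.2 and 73.5 in mock and 71.5 and 68.6 with GA3 and was not called.

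Of 8 tested regulators of anthocyanin, 1 was called lower. PAP1, the MYB activator of the late genes, stood at 289.9 and 298 in mock and at 18.3 and 16.6 with GA3, a log2 change of -4.03 ± 0.23. Its paralogues PAP2 and MYB114 had no read in these libraries, and MYB113 had a mean of 0.443 in mock and 0 with GA3. TTG1 and MYBL2, with the highest levels among members not called, had log2 changes of 0.11 ± 0.08 and -0.16 ± 0.09. Early flavonoid genes were called lower in 6 of 9 and higher in none. CHS, chalcone synthase, stood at 6831 and 6328 in mock and at 2612 and 2343 with GA3, a log2 change of -1.41 ± 0.06. FLS1, flavonol synthase, stood at 1037 and 993 and then 303 and 282, a log2 change of -1.79 ± 0.07. MYB111, an activator of flavonol genes, stood at 528 and 559 and then 175 and 167, a log2 change of -1.66 ± 0.09. The groups were apart in each.

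Windows of 250 bases before the start of 3 of these genes are shown because each holds a G-box, CACGTG, the core that bHLH factors such as the PIFs and bZIP factors such as HY5 bind. Of the 7 late anthocyanin enzymes called lower, 2 held CACGTG in this window (DFR and UGT79B1). Of the 6 early flavonoid genes called lower, 2 held it (CHS and CHIL), and PAP1 did not. DFR is on the minus strand (chr5:17166033-17166282), UGT79B1 on the minus strand (chr5:21938397-21938646) and CHS on the plus strand (chr5:4488226-4488475) of RefSeq TAIR10.1. Capitals mark CACGTG at 14 bases before the start of DFR, at 171 and 128 before UGT79B1 and at 233 before CHS. They also mark CACACG, the reverse complement of CGTGTG, at 159 before DFR, and AAATATCT, the evening element, at 84 before CHS.
DFR: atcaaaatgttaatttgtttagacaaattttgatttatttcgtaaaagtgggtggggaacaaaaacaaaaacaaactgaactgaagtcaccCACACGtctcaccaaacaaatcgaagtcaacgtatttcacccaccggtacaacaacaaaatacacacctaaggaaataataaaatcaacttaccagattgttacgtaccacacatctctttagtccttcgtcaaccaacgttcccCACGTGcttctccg
UGT79B1: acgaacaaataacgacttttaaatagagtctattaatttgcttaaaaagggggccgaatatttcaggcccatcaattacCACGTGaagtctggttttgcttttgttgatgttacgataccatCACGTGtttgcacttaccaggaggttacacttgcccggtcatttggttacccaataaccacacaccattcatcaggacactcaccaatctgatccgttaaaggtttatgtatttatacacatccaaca
CHS: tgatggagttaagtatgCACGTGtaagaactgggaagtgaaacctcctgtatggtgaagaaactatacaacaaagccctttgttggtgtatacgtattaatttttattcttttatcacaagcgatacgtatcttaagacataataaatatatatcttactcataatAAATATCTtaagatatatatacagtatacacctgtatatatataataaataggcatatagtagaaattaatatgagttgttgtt
CACGTG was in the window of 69 of 334 genes called lower by at least 2-fold (20.7%) and of 20 of 261 called higher by at least 2-fold (7.66%), against 7.17% of 23384 tested genes. For CGTGTG these shares were 7.78%, 8.05% and 5.51%, and for TAACAAA, the gibberellin response element, 15.0%, 17.6% and 16.1%. Both strands were read for each motif, and these shares are descriptions with no test. None of the 6 gibberellin synthesis genes called lower, and none of the 11 expansins and 9 XTHs called higher, held CACGTG in this window.

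Chlorophyll and photosynthesis genes fell in many members by modest amounts. Chlorophyll synthesis genes were called lower in 13 of 19 and higher in none. PORA, the oxidoreductase of etiolated tissue, stood at 31153 and 30426 in mock and at 19403 and 18132 with GA3, a log2 change of -0.71 ± 0.04. CHLH, a subunit of magnesium chelatase, stood at 18576 and 18477 and then 12060 and 12304, a log2 change of -0.61 ± 0.04. PORB, another such oxidoreductase, stood at 49563 and 47953 in mock and 42722 and 42018 with GA3 and was not called. Light-harvesting genes were called lower in 11 of 20 and higher in none. LHCB1.1 stood at 2464 and 2283 in mock and at 901 and 899.6 with GA3, a log2 change of -1.40 ± 0.06. Reads that also match its near-identical relatives were kept out of its count. LHCB4.3 stood at 224 and 206 and then 118 and 134, a log2 change of -0.78 ± 0.12. Photosystem and Rubisco genes were called lower in 16 of 27 and higher in none. PSBO2 stood at 4980.4 and 4735 in mock and at 2809 and 2674 with GA3, a log2 change of -0.82 ± 0.05. RCA, Rubisco activase, stood at 22524 and 23405 and then 16677 and 17653, a log2 change of -0.42 ± 0.04. Carotenoid genes were called lower in 4 of 8, among them PSY, phytoene synthase, at a log2 change of -0.72 ± 0.04.

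Markers of seed reserves also fell. Of 14 tested, 12 were called lower and none higher, and the summed level was 38781 to 44287 normalized reads in mock and 6639 to 11613 with GA3. CRU2, a cruciferin storage protein, stood at 1359 and 1432 in mock and at 276 and 89.4 with GA3, a log2 change of -3.04 ± 0.26. SESA3, an albumin, stood at 659.9 and 638 and then 79.4 and 39.5, a log2 change of -3.45 ± 0.20. PAP85, a vicilin-type protein, stood at 2016 and 1605 and then 291 and 34.3, a log2 change of -3.96 ± 0.47. OLEO1, a coat protein of oil bodies, stood at 845 and 824 and then 176 and 48.9, a log2 change of -3.04 ± 0.29. Every GA3 library was below every mock library in these 4 genes, and the shallower GA3 library was the lowest. OLEO3 stood at 404 and 412 in mock and 391 and 420.2 with GA3 and overlapped. Other seed genes were among the 12 largest falls by the same ranking as the rises, with ATS3, an embryo gene, at 44.3 and 58.5 in mock and 3.18 and 3.12 with GA3, and AT3G22490, a seed maturation protein, at 67.3 and 39.0 and 10.3 and 0.

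Seed reserve and light-harvesting RNA, in which the cotyledons of seedlings are rich, were thus present at these levels in libraries labelled hypocotyl. Both fell with GA3, and their part in the other results was not tested. CACGTG was in the windows of 5 of the 12 seed markers called lower (SESA2, SESA3, SESA4, SESA5 and OLEO1). The window of SESA3, on the plus strand (chr4:13611546-13611795 in RefSeq TAIR10.1), holds it in capitals at 67 bases before the start.
SESA3: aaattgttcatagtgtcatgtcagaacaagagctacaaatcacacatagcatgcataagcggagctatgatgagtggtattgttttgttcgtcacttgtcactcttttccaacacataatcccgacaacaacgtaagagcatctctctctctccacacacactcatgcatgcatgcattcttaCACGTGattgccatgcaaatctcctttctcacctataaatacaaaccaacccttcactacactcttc

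Root markers and reference genes moved little. Of 15 root markers, 1 was called lower, PYK10, a beta-glucosidase of roots and hypocotyls, with means of 83463 in mock and 68437 with GA3 in the authors' deposited table. The other 14, summed, stood at 2444 to 2590 normalized reads in mock and 2498 to 2513 with GA3, and none was at 0 in all 4 libraries. Of 10 reference genes, ACT2 was called higher, at 11314 and 11439 in mock and 13986 and 14693 with GA3, a log2 change of 0.33 ± 0.04, and no other member was called in the authors' deposited table. Limma-voom called 4 of them higher and 1 lower, the last an elongation factor gene (AT5G60390) at a log2 change of -0.10 ± 0.04. Of 26 heat shock genes, 4 were called lower, and limma-voom called 5 lower and 2 higher. HSP90.5, of the chloroplast, stood at 6847 and 7027 in mock and at 3169 and 3125 with GA3, a log2 change of -1.14 ± 0.04. Of 20 cold and ABA genes, 4 were called lower, and limma-voom called 6 lower and 4 higher, among them COR47, a dehydrin gene, at a log2 change of 0.43 ± 0.05. XERICO, which raises ABA, stood at 1195 and 1156 in mock and at 554 and 562 with GA3, a log2 change of -1.08 ± 0.06. Of 67 WRKY factors, 3 were called lower and none higher, smaller shares than the 7.37% and 5.97% of all tested genes. WRKY49 stood at 137 and 149 in mock and at 50.8 and 29.1 with GA3, a log2 change of -1.83 ± 0.22. None of 13 aliphatic glucosinolate genes was called in the authors' deposited table, where 5 were lower at an unadjusted p under 0.05, and limma-voom called 6 lower, among them MAM3 at a log2 change of -0.47 ± 0.08.

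The GA3 libraries stood apart from each other in some genes, of which 5 are given here, singled out after their values were seen. STZ, a zinc finger factor, stood at 92.9 and 42.5 normalized reads in mock and at 304 and 32.2 with GA3. WRKY40 stood at 54.6 and 36.3 in mock and at 315 and 59.3 with GA3. ERF11 stood at 15.3 and 14.2 in mock and at 75.5 and 8.32 with GA3. The deeper GA3 library was the high one in each, and none of the 3 was called in the authors' deposited table. The seed genes SESA5, at 1106 and 1159.6 in mock and 333 and 35.4 with GA3, and PAP85, given above, also had wide gaps and were called lower. With the shallower GA3 library left out, limma-voom called 10 WRKY factors and 8 jasmonate genes higher, and with the deeper one left out, 1 and 0. The counts of seed markers called lower were 13 and 13 in these fits.

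**Figure D4:**
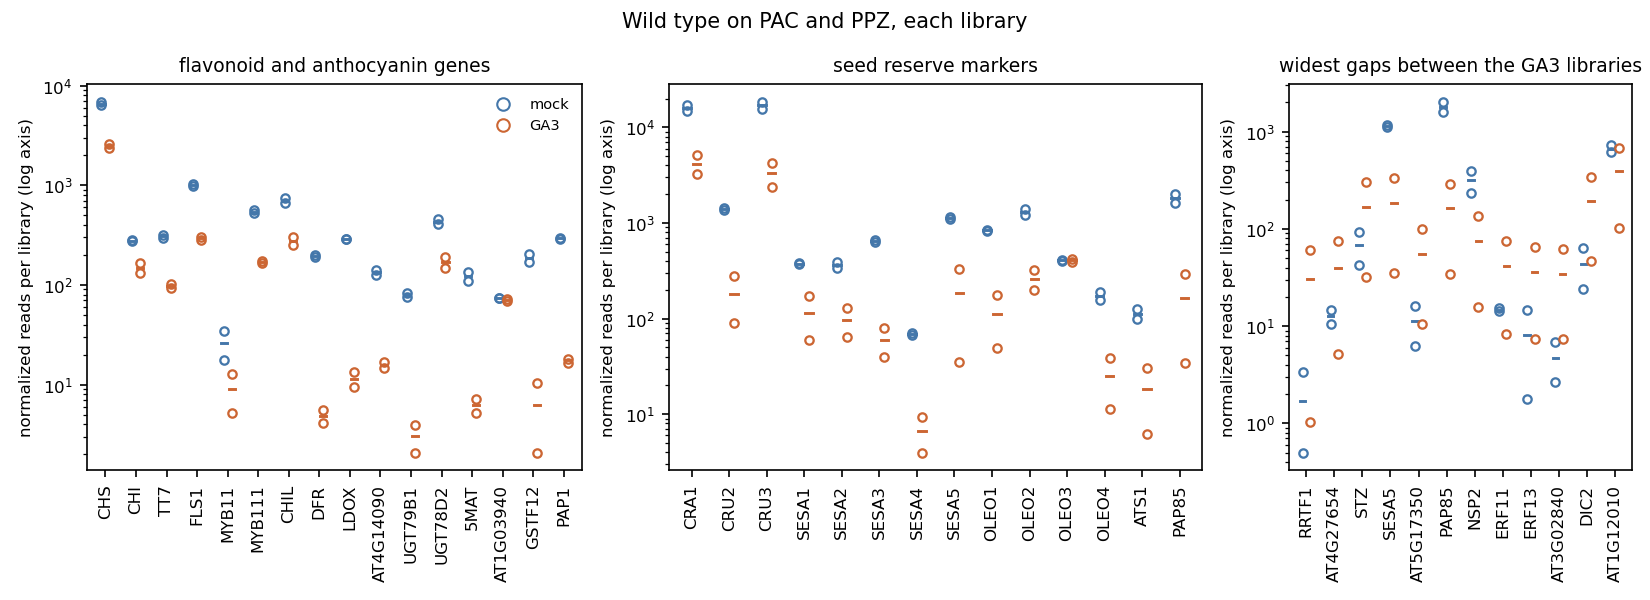
Normalized reads, on a log axis, of flavonoid and anthocyanin genes (left), seed reserve markers (middle) and the 12 genes with the widest gap between the GA3 libraries (right), with 1 open circle per library (blue for mock, orange for GA3, 2 each) and a bar at the group mean; a library at 0 is drawn at 0.5. The GA3 circles lie below mock in the left and middle panels, apart from AT1G03940 and OLEO3, where they meet or nearly do, and lie far apart from each other in the right panel.

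GA3 had also been given on PAC without PPZ, so its effect could be compared with and without inhibition of brassinosteroid synthesis; the 2 comparisons share no library. Without PPZ the authors' deposited table called 3107 genes higher and 3429 lower (12.9% and 14.3% of 24020, 27.2% in all). Of the genes called higher with PPZ, 1162 were also higher without it, which is 79.4% of the first list and 37.4% of the second. Of the genes called lower with PPZ, 1549 were also lower without it, or 85.8% and 45.2%. Among 534 genes called in both tests and changed at least 2-fold in limma-voom with PPZ, 526 had the same sign without it, and their log2 changes had r = 0.92 across genes, which share their libraries and are not independent. The 242 genes among them that were higher had a median log2 change of 1.25 with PPZ and 1.14 without. The 292 that were lower had -1.46 and -1.70. All 534 were selected by their call and size with PPZ, which favours large values with PPZ. These medians therefore do not show which effect was the larger.

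A limma-voom test of the difference itself called 682 of 19538 genes (3.49%), with 364 more positive (1.86%) and 318 more negative (1.63%) with PPZ. Scaled by total reads it called 642 and 269. These counts rest on single libraries. Without the deeper PAC GA3 library 53 genes were called, without the shallower PAC mock library 2769, without the shallower PPZ mock library 64, without the deeper PPZ mock library 126, without the deeper PPZ GA3 library 164, without the shallower PPZ GA3 library 228 and without the shallower PAC GA3 library 292. Of the 53 calls, 52 were among the 682, and all 682 were among the 2769. The PAC mock pair was the most unequal in depth of the 4, at 16644335 and 8111167 reads. Its libraries also differed most beyond counting noise, with a chi-square over degrees of freedom of 10.3. That value was 3.36 for PAC GA3, 2.25 for PPZ mock and 2.69 for PPZ GA3. Each difference between the GA3 effects uses this PAC mock pair.

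Among expansins, EXPA8 had the most positive called difference, with a log2 change of 3.78 ± 0.31 with PPZ and 1.93 ± 0.12 without, and a difference of 1.85 ± 0.34 (adjusted p = 0.0170). Its level without PPZ was 486 and 515 normalized reads in mock and 2052 and 1784 with GA3, in a table normalized separately. XTH16 had a log2 change of 1.24 ± 0.13 without PPZ and a difference of 1.15 ± 0.15. EXPA3 had a log2 change of 1.15 ± 0.14 without PPZ and a difference of 0.85 ± 0.16. GASA6 had a log2 change of 2.09 ± 0.11 without PPZ and a difference of 0.56 ± 0.13. The groups of EXPA8 were apart in both settings. EXPA14 differed in the other direction, at -2.25 ± 0.30 (adjusted p = 0.00450), with 80.1 and 97.4 in mock and 61.2 and 56.2 after GA3 with both inhibitors, and 36.9 and 56.5 and 148 and 126 on PAC alone. XTH17 and XTH18 did so too, at -1.25 ± 0.26 and -1.01 ± 0.22. The calls of EXPA14 and XTH16 held in all 13 alternative fits, and that of XTH18 was lost in 8. In all, 3 expansins were called more positive and 4 more negative with PPZ, and 5 and 3 of the XTHs.

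In the gibberellin pathway the difference was tested for 9 of 14 synthesis, 4 of 11 inactivation and 13 of 13 perception and DELLA genes, and was called for GA20OX1. GA20OX1 stood at 168 and 191 in mock and 256 and 178 with GA3 on PAC alone, and its difference was -2.70 ± 0.51 (adjusted p = 0.0196), a call lost in 5 of 13 alternative fits. GA2OX1, called higher on PAC alone at 0.901 and 1.76 in mock and 13.8 and 12.3 with GA3, was too low for the test. GA20OX3 fell in both settings, with a log2 change of -4.35 ± 0.35 without PPZ and a difference of -0.62 ± 0.60 that was not called. Late anthocyanin enzymes had 7 of 8 called lower without PPZ too, with a median of -5.85, and no called difference.

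The most negative differences lay in genes with little change with PPZ. CER4, which makes wax alcohols, stood at 17.1 and 31.9 in mock and 11.1 and 16.6 after GA3 with both inhibitors, and at 0.901 and 0 and 23.9 and 17.8 on PAC alone, a difference of -5.09 ± 0.69. WSD1, a wax ester synthase, had at most 1.28 normalized reads as a group mean with PPZ, and stood at 12.6 and 12.4 in mock and 222 and 212 with GA3 on PAC alone. ACS5, of ethylene synthesis, stood at 2.56 and 4.43 and 5.56 and 9.36 with PPZ and at 9.01 and 7.06 and 159 and 168 without. WSD1 and ACS5 were high in both GA3 libraries on PAC alone and in no library with PPZ, whereas CER4 was close to 0 only in the mock libraries on PAC alone. WSD1 and ACS5 had too few reads for a limma-voom value with PPZ and entered the test of the difference only through the GA3 libraries on PAC alone, so the fitted size of their difference rests on few reads. Levels with and without PPZ come from tables normalized separately. IAMT1, which methylates auxin, stood at 43.5 and 52.3 in mock and 27.0 and 34.3 after GA3 with both inhibitors, and at 343 and 364 and 50.5 and 45.1 on PAC alone, a difference of 2.19 ± 0.28. Of the xylem, secondary wall and lignin genes, 15 of 22 were called higher on PAC alone against 1 with PPZ, and the difference was called for PAL1, 4CL1, LAC4 and XCP1, from -0.56 ± 0.13 to -0.62 ± 0.14. Of 13 alternative fits, these calls were lost in 7 for PAL1, 5 for 4CL1, 9 for LAC4 and 8 for XCP1. Arabinogalactan proteins had 5 called differences, all more negative with PPZ, and 17 of 30 called higher on PAC alone. AGP13 differed by -2.85 ± 0.50 and AGP22 by -2.25 ± 0.29.

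Of the genes called lower with PPZ, 14 were called higher without it, and of those called higher with PPZ none was called lower without it. NAP, a NAC factor of leaf senescence, was one of the 14, singled out after its values were seen, at 124 and 121 normalized reads in mock and 89.8 and 78.0 after GA3 with both inhibitors. The authors' deposited table gives it 0.685 times the mock level with PPZ and 2.15 times without. COR78, a cold and ABA gene, stood at 588 and 548 in mock and 419 and 442 with GA3 with PPZ, and the authors' deposited table gives 0.758 times and, without PPZ, 1.57 times. The difference was called for 13 of the 14. These genes were picked by their opposite calls in the same libraries, so this count is no separate evidence.

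**Figure D5:**
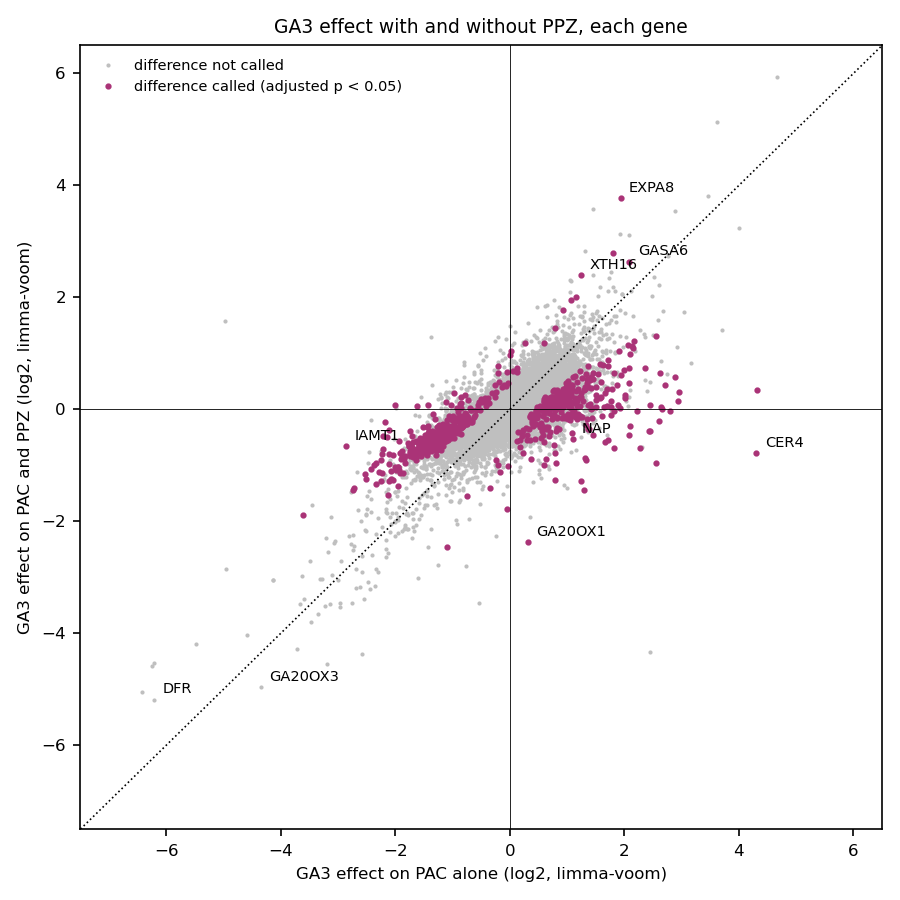
Log2 change with GA3 on PAC alone (horizontal) against that on PAC and PPZ (vertical) for each gene fitted in both. The dotted line marks equal changes, and genes with a called difference are in magenta. Those of the 682 called genes that lack a limma-voom value in 1 setting, such as WSD1 and ACS5, are not drawn. Genes far from 0 lie both near the line and well off it. EXPA8, XTH16 and IAMT1 lie above it, and CER4 lies to the right near 0 on the vertical axis.

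The authors' deposited table that compares the mutant bzr1-1D with wild type, both on the 2 inhibitors, uses the same mock libraries as the GA3 comparison, so the values are set side by side with no test of likeness. The bzr1-1D mutation stabilizes BZR1, and that table called 14.5% of the genes tested higher and 15% lower, 29.6% in all. DFR was 8.68-fold lower in bzr1-1D in that table and 39.97-fold lower with GA3 in the authors' deposited table of GA3. PAP1 was 2.40-fold lower in bzr1-1D and 16.8-fold lower with GA3, each in the authors' deposited table of that comparison. Tubulins were called higher in 13 of 15 in bzr1-1D as well, and chlorophyll genes lower in 19 of 19. GA3OX1 was called higher in bzr1-1D, at 1.58 times its mock wild-type level in the authors' deposited table. GA20OX1 was also called higher there, at 2.01 times (DESeq adjusted p = 0.0174). GA20OX3 stood at 1.59 times and was not called (DESeq adjusted p = 0.0782). No gibberellin synthesis gene was called lower in that table.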

How the data were processed

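RNA-seq libraries of 4 wild-type groups (8 libraries) were used, and deposited group values of bzr1-1D. Per the submitters' processing notes, the authors used TopHat and DESeq; versions, the genome build, annotation, counting program and strand setting were not given in the sources used here. Per the file headers, each group column holds the mean normalized signal, which the authors made by dividing reads by DESeq size factors and averaging over 2 libraries. The deposited fold is the ratio of the group means, and the deposited p-value columns come from the authors' DESeq test, before and after adjustment. A gene was called at an adjusted p under 0.05, with the direction of the deposited fold.

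The 5 rows that name no gene were left out. In the mock and GA3 groups on PAC and PPZ, reads aligned to several places made up 10.7% and 10.2% of the total, reads outside genes 1.47% and 1.53%, and ambiguous reads 1.36% and 1.35%.

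Whole reads of each library were recovered from the group means, which are sums of whole multiples of a step per library. They resolved for 99.97% of genes above 0 in mock and 99.98% with GA3, and on simulated data no recovered gene was wrong. The simulated pairs had the same setting of spread beyond counting noise for every gene. They therefore did not check genes with gaps as wide as those of STZ and PAP85. The libraries of a pair differed beyond counting noise (chi-square over degrees of freedom of 2.25 in mock and 2.69 with GA3). The labels do not say that they came from separate cultures, so p-values measure the spread between these samples. Counts of other samples were not in the tables (0 columns).

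Log2 changes and standard errors came from limma-voom (limma 3.58.1, R 4.3.3) on genes averaging 10 normalized reads or more; the difference of the GA3 effects with and without PPZ was an interaction term over 8 libraries. Tested on simulated data, the comparison of 19586 genes recovered 95% of 2-fold and 99% of 4-fold changes with 9 false calls. The interaction over 19478 genes recovered 76% and 95% with 14. The simulation gave every group the same spread at a given level. The real groups differed in it, with a chi-square over degrees of freedom of 10.3 in PAC mock and 2.25 in PPZ mock. The figures for the interaction do not cover this inequality. Where one side held no more than 30 reads, a ratio has an exact 95% binomial interval that covers counting error alone. Other steps used numpy 2.4.6, pandas 2.3.3 and scipy 1.17.1. Of the gene identifiers, 32709 matched RefSeq (TAIR10.1), which gave symbols and the 250-base windows.

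The genes, 52 lists (919 genes) and tests were chosen with earlier results of these data known, and lists carry no test. Named genes are the 12 largest rises and falls called by both tests with a mean of at least 20 in the higher group. They also include up to 6 called and 2 uncalled members per list and all gibberellin and GASA genes. The 8 largest differences with PPZ in each direction and the 6 most abundant genes called at 1.5-fold or more complete them. Alternatives were another test, threshold, filter, scaling and fit, and leaving out each library.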

Additional observations from a re-analysis of the deposited data

Results flagged for a closer look

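The effect of GA3 differed between seedlings with and without PPZ in 682 genes, by the limma-voom interaction test at an adjusted p under 0.05. The genes below stand out by that test alone, and each value is the log2 effect with PPZ minus that without.

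More positive with PPZ were AT5G42530, an uncharacterized protein, at 2.71 ± 0.66, and IAMT1 at 2.19 ± 0.28. AT5G42530 stood at 31.5 and 23.0 in mock and 16.7 and 16.6 after GA3 with both inhibitors. On PAC alone it stood at 12.6 and 12.4 in mock and 1.84 and 0 with GA3, too few reads for a limma-voom value there. The fitted size of its difference thus rests on few reads and is no bound. CRK30, a receptor-like kinase, differed by 2.08 ± 0.38, since its level hardly changed with PPZ (102 and 119 in mock, 108 and 126 with GA3) and was 109 and 65.3 and 24.8 and 19.1 without. AT4G15660, a thioredoxin family gene, differed by 1.95 ± 0.40, EXPA8 by 1.85 ± 0.34, AT4G26390, a pyruvate kinase family gene, by 1.75 ± 0.37, and AT5G05420, an isomerase family gene, by 1.74 ± 0.32. ESM1, a modifier of glucosinolate breakdown, differed by 1.72 ± 0.15. It fell in both settings, from 2587 and 2461 to 679 and 676 with PPZ and from 1254 and 1422 to 108 and 108 without. GASA6 differed by 0.56 ± 0.13 and GASA14 by 0.68 ± 0.12. Of 13 alternative fits, the call was lost in 11 for AT5G42530, 8 for AT4G26390, 7 for AT4G15660, 6 for GASA6 and GASA14, 4 for CRK30, 3 for EXPA8 and AT5G05420, and in 0 for IAMT1 and ESM1.

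More negative with PPZ were WSD1 at -5.39 ± 0.87 and CER4 at -5.09 ± 0.69. AT3G59370, annotated as a vacuolar calcium-binding protein, differed by -3.98 ± 0.38, with 34.1 and 43.4 in mock and 46.9 and 52.0 after GA3 with both inhibitors, and 9.91 and 12.4 and 239 and 213 on PAC alone. AT4G33467 differed by -3.52 ± 0.63, AT4G25250, an invertase and pectin methylesterase inhibitor, by -3.42 ± 0.75, and AT1G70270 by -3.40 ± 0.75. ACS5 differed by -3.23 ± 0.60, AT1G15640 by -3.22 ± 0.58, and GA20OX1 by -2.70 ± 0.51. WSD1, AT1G70270 and ACS5 had too few reads for a limma-voom value with PPZ, and entered the test only through the GA3 libraries on PAC alone. CER4, AT4G25250 and AT1G15640 were near 0 in mock on PAC alone, at 0.901 and 0, 0.901 and 0 and 0.901 and 1.76. The fitted sizes of these 6 differences rest on few reads in 1 or more groups and are no bounds. The call was lost in 5 of 10 alternative fits for AT1G70270, and of 13 in 6 for AT4G25250, 5 for GA20OX1, 4 for ACS5, 3 for AT4G33467 and AT1G15640, 2 for WSD1, and in 0 for CER4 and AT3G59370.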

How the results depend on the processing

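In the authors' deposited test 3269 genes were called; limma-voom called 7014, a threshold of 0.01 left 2151, and testing only genes with a mean of at least 10 gave 3428. With all 10 libraries in 1 fit limma-voom called 4546 in place of 7014, and leaving out 1 library gave 4832 to 5771. The count of genes whose GA3 effect differed with PPZ, 682, ranged from 53 to 2769 when 1 library was left out. It was 585 with all 10 libraries, 911 scaled by total reads, 617 by upper quartile, 666 with a mean of at least 1 and 555 on log2(reads + 1). Why these counts moved was not tested, beyond the smaller number of libraries in the leave-one-out fits. MYC2, not called at 0.07 (log2), reversed to -0.33 without the deeper GA3 library and ranged up to 0.44 with 1 library left out; the cause was not tested. Over the named genes, 1575 of 1612 log2 changes under other settings kept their side of the threshold, 33 lost the call and 4 gained one. With 1 library left out these numbers were 1218 of 1308, 84 and 5, and differences with PPZ lost the call in 313 of 590. Sign changes were counted only where a fit called the gene, and uncalled genes such as GA1 and TUA1 changed sign in some fits. No paired analysis was possible because the deposited columns are group means, and the recovered libraries carry no replicate number. Depth limited genes of a few reads, where the intervals are wide.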
